A study of Homo sapiens with 15 samples.

Results

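NRF2, the transcription factor encoded by NFE2L2, is held at a low level by KEAP1, which delivers it to a ubiquitin ligase for degradation. Oxidants and electrophiles release it from KEAP1. It then pairs with a small MAF protein on antioxidant response elements and raises the transcription of genes that make glutathione, reduce thioredoxin and quinones, degrade heme and supply NADPH, while BACH1 competes for the same elements. Some lung adenocarcinomas carry changes in KEAP1 or NFE2L2 that keep this set of genes high.

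Followed here were 10 genes chosen by name as known NRF2 targets, of 19612 genes in the table. They are SLC7A11, GCLC and GCLM of glutathione supply, TXNRD1 and SRXN1 of the thioredoxin system, NQO1, HMOX1, ME1, and the aldo-keto reductases AKR1B10 and AKR1C1. All 10 symbols were present. They were measured by RNA sequencing of total RNA in 15 libraries of H1975, a human lung adenocarcinoma line with the EGFR changes T790M and L858R, and of H1975–OR, its osimertinib-resistant derivative, which was maintained in 500 nM osimertinib, a covalent EGFR inhibitor. Samples 1a to 1c were H1975 and Samples 2a to 2c H1975–OR after 96 h of vehicle, Samples 3a to 3c H1975–OR with 100 nM 1,25(OH)2D3, the active vitamin D metabolite, Samples 4a to 4c H1975–OR with 500 nM osimertinib, and Samples 5a to 5c H1975–OR with both agents, each dosed at 0, 48 and 92 h. The letters a, b and c are read here as the 3 separate passages that the authors describe, which the sample labels do not state. That a letter marks the same passage in different groups is not stated either. The p-values measure the spread between passages of 1 line. H1975 was not measured with either agent, and H1975–OR differs from H1975 by line and by its earlier culture in osimertinib at once, which cannot be told apart.

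Total counts lay between 4378030 and 6140120 per library, and 3 counts, taken as the detection floor for counting error only, corresponded to 0.476 to 0.707 CPM (counts scaled by library size with TMM factors). Sample 3a stood apart, with a mean correlation with its own group of 0.865 against 0.903 to 0.952 for the other libraries. It was left out of the fits, as in the study, and its values are given with the others. KRT18, an epithelial keratin, reached 1776 to 2917 CPM in the other 14 libraries. Of the other epithelial markers there, KRT8 read 303 to 875 CPM, KRT19 97.9 to 1229 CPM and EGFR 103 to 311 CPM. EPCAM ranged from 1.17 to 207 CPM and CDH1 from 2.45 to 383 CPM. Of the mesenchymal markers, VIM read 2198 to 4801 CPM, FN1 50.6 to 957 CPM, ZEB1 1.22 to 51.2 CPM and CDH2 at most 2.11 CPM. NKX2-1, a lung lineage factor, read 31.9 to 98.8 CPM, while the surfactant genes SFTPB and SFTPC and the protease NAPSA were at or below 2.25 CPM. Among leukocyte markers, CD3E was at 0 in all libraries, PTPRC stayed at or below 2.12 CPM, and CD14 reached 6.92 CPM, and 50.8 CPM in Sample 3a. Of the endothelial markers, VWF stayed at or below 0.817 CPM, PECAM1 reached 4.19 CPM and CDH5 11.6 CPM. CYP24A1, the vitamin D receptor's best known target, read 676 to 1468 CPM in the libraries with 1,25(OH)2D3 and 3.30 to 9.12 CPM in the H1975–OR libraries without it. In a bulk library, fewer cells expressing a gene and less RNA per cell cannot be told apart.

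Start regions of 7 of the 10 genes (8 starts) were in the RefSeq set on GRCh38.p14, each spanning 250 bases before to 50 after the start; HMOX1, SLC7A11 and AKR1B10 had none there. The core of the antioxidant response element, TGACNNNGC, was searched on both strands. It was found at 4 of the 8 starts, those of GCLM, ME1 and both starts of TXNRD1, against 13.3% of 35116 start regions. The letters of the AP-1 site, TGANTCA, were found in 1 of the 8, that of ME1, where they overlap the element, against 7.71% of all. Shown are 3 start regions with matches, in capitals, and that of GCLC, the gene with the highest fold change with 1,25(OH)2D3, which holds no match in this window. Each reads 5′ to 3′ on the gene's own strand.
GCLM, chr1:93909381-93909680, minus strand: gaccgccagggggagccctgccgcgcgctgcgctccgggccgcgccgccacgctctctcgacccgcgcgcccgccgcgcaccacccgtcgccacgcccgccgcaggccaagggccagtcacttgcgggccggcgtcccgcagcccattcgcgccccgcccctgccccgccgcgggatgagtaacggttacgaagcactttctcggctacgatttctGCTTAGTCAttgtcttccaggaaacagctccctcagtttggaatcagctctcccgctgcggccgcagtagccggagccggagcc
TXNRD1, chr12:104215529-104215828, plus strand: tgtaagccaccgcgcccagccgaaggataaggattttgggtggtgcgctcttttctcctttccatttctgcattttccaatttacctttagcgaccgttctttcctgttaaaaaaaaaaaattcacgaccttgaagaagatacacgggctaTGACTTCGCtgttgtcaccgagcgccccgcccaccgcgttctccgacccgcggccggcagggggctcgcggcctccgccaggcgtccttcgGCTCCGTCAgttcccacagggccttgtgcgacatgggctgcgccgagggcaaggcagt
ME1, chr6:83431002-83431301, minus strand: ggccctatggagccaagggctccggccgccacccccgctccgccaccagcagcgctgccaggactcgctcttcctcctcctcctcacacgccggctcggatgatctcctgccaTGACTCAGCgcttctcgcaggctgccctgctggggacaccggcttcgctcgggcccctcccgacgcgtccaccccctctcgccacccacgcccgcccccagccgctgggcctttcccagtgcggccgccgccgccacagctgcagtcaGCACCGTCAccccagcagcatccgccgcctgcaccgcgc
GCLC, chr6:53545052-53545351, minus strand: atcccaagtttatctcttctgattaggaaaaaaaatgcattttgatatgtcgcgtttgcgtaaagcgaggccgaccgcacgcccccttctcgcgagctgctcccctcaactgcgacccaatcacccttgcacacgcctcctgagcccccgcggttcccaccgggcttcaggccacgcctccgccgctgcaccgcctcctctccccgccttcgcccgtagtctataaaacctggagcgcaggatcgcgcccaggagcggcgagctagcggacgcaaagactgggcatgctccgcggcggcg
In GCLM the match began at position -34 from the start and lay on the opposite strand. In TXNRD1 a match on the gene's strand began at -99 and one on the opposite strand at -8. In ME1 the match that contains the AP-1 letters began at -137, and another on the opposite strand at 12. These are matches of letters and not measured binding.

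In vehicle-treated H1975 the 10 genes spanned a wide range. Per kilobase of the GENCODE canonical transcript, TXNRD1, which reduces thioredoxin, stood at 265 ± 49.3 CPM per kb (mean ± SD, n = 3) and NQO1, which reduces quinones to hydroquinones, at 244 ± 19.0, so that this pair did not differ beyond its spread. SRXN1, which repairs over-oxidised peroxiredoxins, followed at 88.2 ± 6.17 and HMOX1, which opens the heme ring, at 72.2 ± 26.2, again within the spread. ME1, the cytosolic malic enzyme that makes NADPH, stood at 15.4 ± 1.76. GCLM, GCLC, SLC7A11 and AKR1B10 lay between 3.27 and 8.94, and AKR1C1 at 0.371 ± 0.183 on a transcript model of 6543 bases. Levels between genes depend on the transcript chosen, and all values from here on are CPM per gene.

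The first comparison asked how the genes differed between H1975–OR and H1975 without drug. All 10 fitted log2 fold changes were below 0, and 4 of the 10 genes fell (edgeR's quasi-likelihood test, Benjamini-Hochberg adjusted p under 0.05 over 12513 genes): HMOX1, SRXN1, GCLM and AKR1B10. None rose. AKR1B10 was tested only because its counts were high enough in H1975, and of the other 9 genes 3 fell. Of all genes tested, 10.3% fell and 20.1% passed in either direction, and the median log2 fold change was −0.64 for the 10 genes and 0.01 for all genes.

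HMOX1 (chr22:35380361-35394214) read 67.5, 147 and 122 CPM in Samples 1a to 1c and 40.7, 21.9 and 15.8 CPM in Samples 2a to 2c. The groups did not overlap, with Sample 1a the lowest of H1975 and Sample 2a the highest of H1975–OR. The log2 fold change was −2.09 (SE 0.38, adjusted p = 0.0070). SRXN1 (chr20:646615-653200) read 219, 240 and 210 CPM in H1975 and 155, 141 and 142 CPM in H1975–OR. Its libraries were close within each line and well apart between them, with a log2 fold change of −0.59 (SE 0.10, adjusted p = 0.0053). HMOX1 and SRXN1 passed under all 17 alternative analyses run for this comparison.

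GCLM (chr1:93885199-93909456) encodes the modifier subunit of glutamate-cysteine ligase, the enzyme that limits glutathione synthesis. It read 44.5, 44.4 and 42.1 CPM in H1975 and 27.6, 24.2 and 30.8 CPM in H1975–OR, without overlap, a log2 fold change of −0.65 (SE 0.16, adjusted p = 0.025). Its direction held in all alternatives, but its adjusted p rose to 0.052 without Sample 1a, 0.072 without Sample 1b, 0.088 without Sample 2b and 0.051 with Sample 3a kept. GCLC (chr6:53497341-53616970) encodes the catalytic subunit of the same enzyme. It read 6.40 and 3.64 CPM in Samples 1a and 1b but 51.4 CPM in Sample 1c, against 6.33, 2.07 and 8.66 CPM in H1975–OR. The fitted value of −1.81 (SE 0.96, adjusted p = 0.22) rested on Sample 1c and became 0.18 (adjusted p = 0.88) without it.

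SLC7A11 (chr4:138164097-138242349), the cystine importer xCT, read 32.9, 48.2 and 49.2 CPM in H1975 and 31.7, 19.6 and 24.3 CPM in H1975–OR. The groups did not overlap, though Samples 1a and 2a were close. Its log2 fold change of −0.77 (SE 0.25) had an adjusted p of 0.059. It passed in 5 of 17 alternatives, with an adjusted p of 0.037 without Sample 1a, 0.030 without Sample 2a, 0.031 by DESeq2, 0.049 with at least 10 counts in every library and 0.024 over all 14 libraries. ME1 (chr6:83210402-83431051) read 45.0, 56.4 and 53.0 CPM in H1975 and 47.8, 29.1 and 34.3 CPM in H1975–OR, with Sample 2a inside the H1975 range. Its log2 fold change was −0.46 (SE 0.20, adjusted p = 0.14), and −0.70 (adjusted p = 0.023) without Sample 2a.

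The genes with the highest counts did not pass. NQO1 (chr16:69706996-69726668) read 621, 661 and 566 CPM in H1975 and 399, 463 and 576 CPM in H1975–OR, so that Sample 2c lay within the H1975 range (log2 fold change −0.35, SE 0.17, adjusted p = 0.18). TXNRD1 (chr12:104215779-104350307) read 857, 1232 and 984 CPM in H1975 and 1282, 673 and 694 CPM in H1975–OR, where Sample 2a was the highest of all 6 libraries (log2 fold change −0.20, SE 0.25, adjusted p = 0.62). Without Sample 2a the value was −0.59 (adjusted p = 0.032). Passage a of H1975–OR was thus the highest of its group for TXNRD1, SRXN1, HMOX1, SLC7A11 and ME1, and the lowest for NQO1.

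AKR1B10 (chr7:134527567-134541412), an aldo-keto reductase that reduces aldehydes and retinal, had 35, 44 and 9 counts in Samples 1a to 1c (6.06, 8.01 and 1.83 CPM) and 3, 3 and 0 counts in Samples 2a to 2c. It passed the filter on low counts through H1975 alone, so a difference was built into its being tested. Over the summed counts, 88 against 6, its level was 13.5-fold lower in H1975–OR (95% exact interval 5.97 to 37.8, counting error only). The fitted log2 fold change was −3.62 (SE 0.93, adjusted p = 0.028), with an adjusted p of 0.067 without Sample 2b and 0.056 without Sample 2c. In the 9 drug-treated H1975–OR libraries it had at most 6 counts. Its fitted value with 1,25(OH)2D3 was 0.29 (SE 1.16, adjusted p = 0.98), and it was below the filter in the fits of H1975–OR libraries alone. AKR1C1 (chr10:4963253-4983283), which reduces ketosteroids, read 3.81, 1.64 and 1.83 CPM in H1975 and 1.63, 2.48 and 0.578 CPM in H1975–OR (log2 fold change −0.62, SE 0.68, adjusted p = 0.56). Both genes have near-identical neighbours, AKR1B15 (at most 1.09 CPM) and AKR1C2 (at most 3.97 CPM), with which their reads can be exchanged. With each pair summed, the log2 fold changes were −2.80 (adjusted p = 0.025) and −0.64 (adjusted p = 0.54).

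In CPM, all 3 H1975–OR libraries lay below all 3 H1975 libraries for 5 of the 10 genes, which were GCLM, SRXN1, HMOX1, SLC7A11 and AKR1B10, against 20.3% of all genes tested. Without AKR1B10, which was tested only through its level in H1975, it was 4 of 9. Without Sample 1b or without Sample 2b, 2 of the genes tested passed, and without Sample 2a 7 passed, so the number called depends on single libraries while the direction of the median did not.

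**Figure D1:**
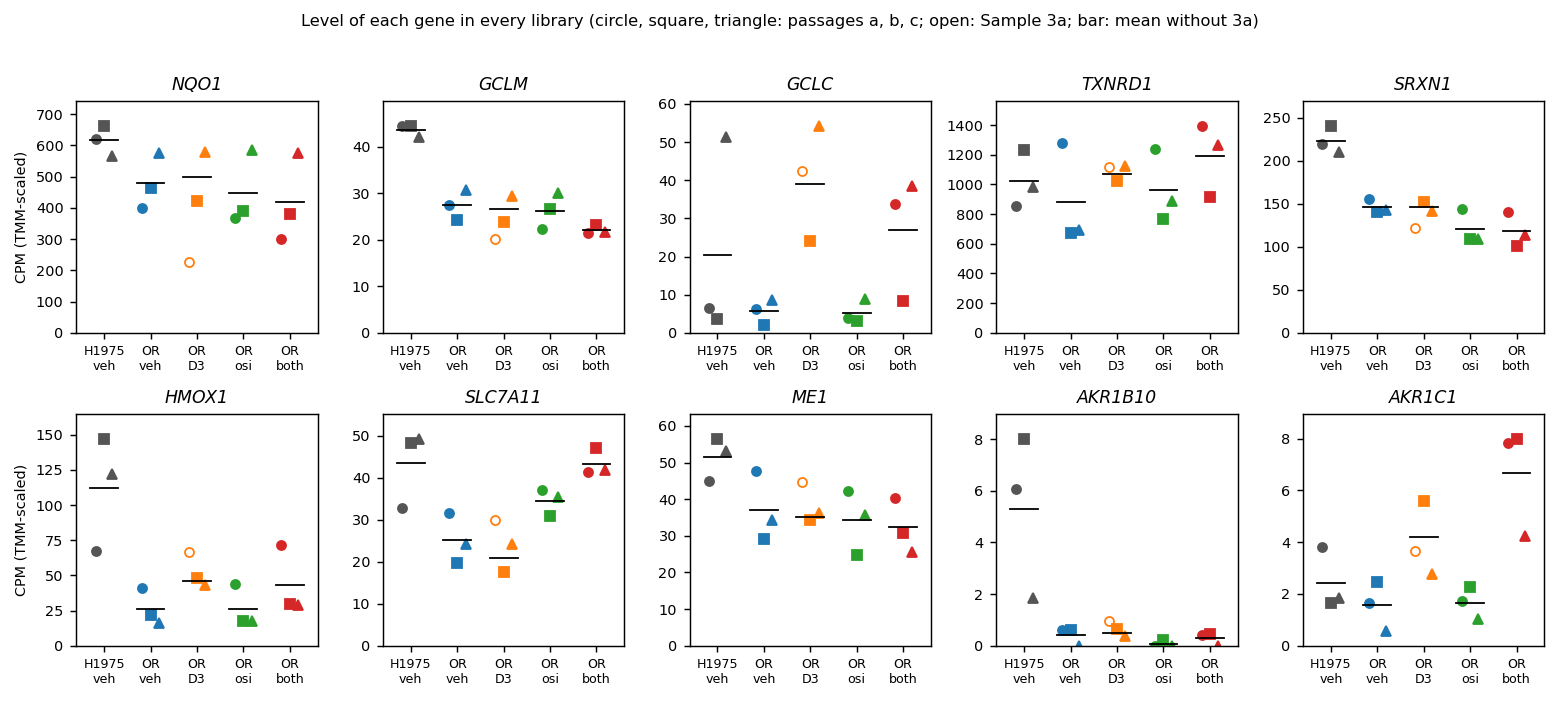
Level of each of the 10 genes in all 15 libraries, in TMM-scaled CPM on a linear axis from 0 (circle, square and triangle, passages a, b and c; open circle, Sample 3a; bar, group mean without it; veh, vehicle; D3, 1,25(OH)2D3; osi, osimertinib). HMOX1, SRXN1 and GCLM were lower in every vehicle-treated H1975–OR library than in any H1975 library, and GCLC was at 51.4 CPM in Sample 1c alone among the H1975 libraries.

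The regulators of the pathway were present in every library. NFE2L2 itself read 126 to 175 CPM, KEAP1 149 to 234 CPM and BACH1 43.1 to 101 CPM over the 15 libraries, and none of these 3 passed in any comparison. Of 10 regulators tested, which also included CUL3, RBX1 and the small MAF genes, 1 passed in H1975–OR against H1975. This was SQSTM1 (p62), an autophagy receptor that binds KEAP1, which fell by 0.61 on the log2 scale (SE 0.12, adjusted p = 0.0088). RNA levels of NFE2L2 and KEAP1 do not report NRF2 protein.

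Other genes of the pathway passed in both directions between the lines. Of 20 glutathione and thioredoxin enzymes tested, 3 rose and 2 fell, with a median log2 fold change of −0.05. This is 25% of the list, near the 20.1% of all genes that passed in this comparison. GSR, which regenerates reduced glutathione, fell by 1.77 on the log2 scale (SE 0.17, adjusted p = 0.00058) and GGCT fell by 0.70 (SE 0.16, adjusted p = 0.019). GSTM3, a glutathione transferase, rose by 1.38 (SE 0.23, adjusted p = 0.0049) and TXNIP, which binds and inhibits thioredoxin, by 0.63 (SE 0.16, adjusted p = 0.028). PRDX5, a peroxiredoxin, was the other that rose.

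Among enzymes that supply NADPH, IDH1, the cytosolic isocitrate dehydrogenase, fell by 0.88 (SE 0.15, adjusted p = 0.0055), while PGLS, of the pentose phosphate pathway, rose by 0.52 (SE 0.15, adjusted p = 0.041). Of 7 heme and iron genes, SLC48A1, a heme transporter, rose by 2.45 (SE 0.37, adjusted p = 0.0033) and the other 6 did not pass. Of 12 genes of carbonyl reduction, conjugation and efflux, AKR1B1, aldose reductase, fell by 1.38 (SE 0.12, adjusted p = 0.00030) and CBR3 fell by 1.61 (SE 0.40, adjusted p = 0.025), whereas ALDH3A2 rose by 1.16 (SE 0.25, adjusted p = 0.013). None of 5 other NRF2 targets tested passed, with a median of −0.38.

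SLC7A11 is also a target of ATF4, the factor of the amino acid stress response. Of 9 genes of that set 2 passed, and both fell, where TRIB3 fell by 0.75 (SE 0.16, adjusted p = 0.015) and DDIT3 fell by 0.86 (SE 0.23, adjusted p = 0.030). This is 22.2% of the set, near the 20.1% of all genes, and its median was 0.04. Of 6 epithelial markers, KRT19, EPCAM and CDH1 fell and KRT18 rose between the same groups, and of 3 mesenchymal markers tested ZEB1 rose and FN1 fell, so the antioxidant genes were compared between lines that also differed in these markers. Their part in the result was not tested.

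The second comparison asked what 1,25(OH)2D3 did in H1975–OR. In the fit without passage, 0 of 10 genes passed, where 19 of 12513 genes (0.152%) did. At an unadjusted p under 0.05 there was 1 of 10, GCLC, beside 7.27% of all genes, and DESeq2 also called 0. The letters paired most but not all of the H1975–OR libraries, as described under the processing. With the passage as a block over the 11 H1975–OR libraries 48 genes of 12503 (0.384%) passed, of which 2 were among the 9 target genes tested. These were GCLC and HMOX1, and both rose. This blocked fit was not among the alternatives planned at the start and was chosen with the values known. The planned block, in the fit of 8 libraries with H1975, called 9 genes and 0 of the 10 target genes. The 11 H1975–OR libraries without a block gave 12 genes and 0 target genes. For this comparison, values below without the block are from the fit of 8 libraries. Those with the block are from H1975–OR libraries only.

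GCLC read 6.33, 2.07 and 8.66 CPM with vehicle and 42.4, 24.0 and 54.2 CPM with 1,25(OH)2D3. Every treated library, Sample 3a included, was above every vehicle library. The log2 fold change was 2.78 (SE 1.03, adjusted p = 0.59) in the fit of 8 libraries without the block. In the H1975–OR libraries with the block it was 3.01 (SE 0.36, adjusted p = 0.017), and 2.94 (SE 0.32, adjusted p = 0.0045) with Sample 3a kept. GCLC passed in 2 of 20 alternatives, both added with the values known. The spread among passages was wide on both sides, with passage b the lowest in either group.

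HMOX1 read 40.7, 21.9 and 15.8 CPM with vehicle and 66.5, 48.1 and 43.2 CPM with 1,25(OH)2D3. Each treated library exceeded all vehicle libraries, and passage a was the highest in both groups. The log2 fold change was 0.81 (SE 0.41, adjusted p = 0.74) in the fit of 8 libraries without the block. In the H1975–OR libraries with the block it was 1.33 (SE 0.16, adjusted p = 0.017), and HMOX1 passed in this 1 of 20 alternatives. With the block and Sample 3a kept, the log2 fold change was 1.11 (SE 0.20), and the adjusted p was 0.064. AKR1C1 read 1.63, 2.48 and 0.578 CPM with vehicle and 3.65, 5.58 and 2.78 CPM with 1,25(OH)2D3. Its log2 fold change with the block was 1.58 (SE 0.48, adjusted p = 0.33), at counts of 3 to 26 per library.

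The remaining genes did not pass. With the block, log2 fold changes were −0.09 (SE 0.10) for NQO1, −0.09 (SE 0.18) for GCLM, 0.11 (SE 0.11) for SRXN1, −0.19 (SE 0.22) for SLC7A11 and 0.14 (SE 0.18) for ME1. NQO1 read 226, 420 and 580 CPM with 1,25(OH)2D3, GCLM 20.2, 23.8 and 29.5 CPM and SRXN1 121, 151 and 141 CPM, with the lowest value of each in Sample 3a. SLC7A11 read 30.0, 17.6 and 24.1 CPM, and ME1 44.8, 34.3 and 36.2 CPM. TXNRD1 read 1120, 1020 and 1123 CPM, with 0.55 (SE 0.14, adjusted p = 0.22) under the block. GCLM and GCLC, the 2 subunits of one enzyme, thus gave −0.09 and 3.01 in the same fit. The median over the 9 genes was 0.14, and 0.001 over all genes.

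Of the other genes of the pathway, none of 10 regulators, 20 glutathione and thioredoxin enzymes, 7 heme and iron genes or 9 ATF4 targets passed with 1,25(OH)2D3, with or without the block. CDH1, E-cadherin, rose in the same libraries, by 4.22 (SE 0.51, adjusted p = 0.024). FN1, fibronectin, on the mesenchymal list, read 65.4, 52.3 and 50.6 CPM with vehicle and 229, 165 and 125 CPM with 1,25(OH)2D3, and rose by 1.54 with the block (adjusted p = 0.017; without it 1.37, adjusted p = 0.12). Their part in the results for the target genes was not tested.

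Another comparison asked what osimertinib did in H1975–OR. None of the 9 target genes tested passed, where 6 of 12503 genes (0.048%) did, and none passed with passage as a block, where 35 genes (0.28%) did. At an unadjusted p under 0.05 there was 1 of 9 without the block, beside 7.53% of all genes, and 2 of 9 with it, beside 13.7%. DESeq2 called 0. The median log2 fold change was −0.06, and 0.01 over all genes. The widest difference from 0 was that of SLC7A11, which read 31.7, 19.6 and 24.3 CPM with vehicle and 37.1, 30.9 and 35.3 CPM with osimertinib. It was higher in each of the 3 passages, while Sample 4b lay below Sample 2a, and its log2 fold change was 0.45 (SE 0.20, adjusted p = 0.66; with the block 0.47, SE 0.18, adjusted p = 0.31).

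NQO1 read 366, 390 and 586 CPM with osimertinib, GCLM 22.2, 26.6 and 30.0 CPM, GCLC 3.80, 3.07 and 8.78 CPM and TXNRD1 1239, 769 and 886 CPM. SRXN1 read 143, 109 and 108 CPM, HMOX1 43.9, 17.4 and 17.8 CPM, ME1 42.4, 24.7 and 35.7 CPM and AKR1C1 1.71, 2.25 and 1.02 CPM. In all 9 genes the passage that was highest with vehicle was also highest with osimertinib. Of the other lists, PHGDH, the first enzyme of serine synthesis and an ATF4 target, passed with the block (0.82 on the log2 scale, adjusted p = 0.037) and not without it (adjusted p = 0.22).

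The next comparison asked what 1,25(OH)2D3 did in the presence of osimertinib. Without the block 0 of 9 genes passed, where 12 of 12503 genes (0.096%) did, 2 had an unadjusted p under 0.05, beside 4.16% of all genes, and DESeq2 called 0. With the block 33 genes (0.264%) passed, among them 1 target gene, GCLC, which rose. GCLC read 3.80, 3.07 and 8.78 CPM with osimertinib and 33.8, 8.45 and 38.4 CPM with both agents. Each passage was higher with both agents, although Sample 5b did not reach Sample 4c. The log2 fold change was 2.36 (SE 0.68, adjusted p = 0.72) without the block and 2.26 (SE 0.33, adjusted p = 0.045) with it.

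HMOX1 read 71.9, 29.3 and 29.0 CPM with both agents, above its passage mate in all 3 passages, with a log2 fold change under the block of 0.71 (SE 0.14, adjusted p = 0.13). AKR1C1 read 7.81, 7.98 and 4.24 CPM with both agents, above every osimertinib library, with 2.00 (SE 0.42, adjusted p = 0.16) under the block. SLC7A11 read 41.3, 46.9 and 41.7 CPM, also above every osimertinib library, with 0.34 (SE 0.18, adjusted p = 0.68). None of these 3 genes passed.

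The other 5 genes overlapped between the groups. With both agents NQO1 read 300, 381 and 576 CPM, TXNRD1 1393, 917 and 1263 CPM and SRXN1 140, 101 and 114 CPM. GCLM read 21.4, 23.2 and 21.7 CPM and ME1 40.5, 30.7 and 25.7 CPM. The median log2 fold change of the 9 genes with the block was 0.31, and 0.001 over all genes. The groups compared for 1,25(OH)2D3 with vehicle and for both agents with osimertinib share no library. Their blocked values, however, were fitted over the same set of H1975–OR libraries, with the passages in common. The blocked results for GCLC in these comparisons are therefore not independent of each other.

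**Figure D2:**
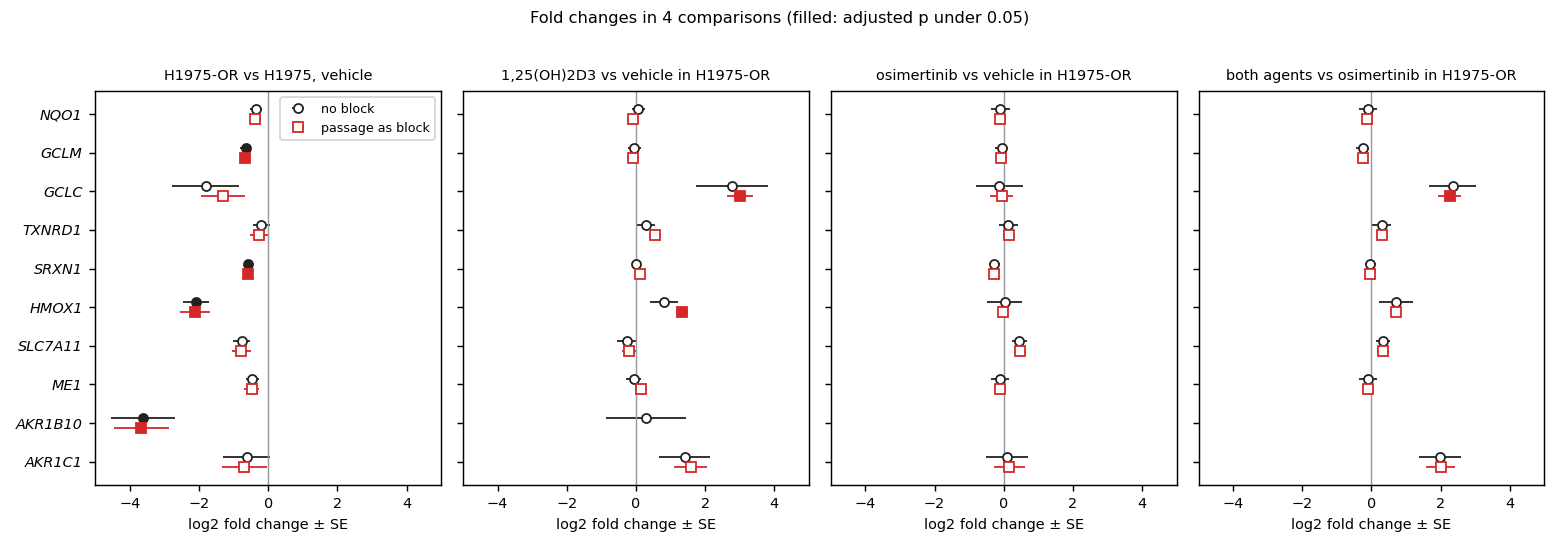
Log2 fold changes with their standard errors in 4 comparisons (circles, no block; squares, passage as a block, over the H1975–OR libraries alone in the second panel; filled, adjusted p under 0.05). The filled markers are HMOX1, SRXN1, GCLM and AKR1B10, to the left of 0, between the lines, and, with the block, GCLC and HMOX1 with 1,25(OH)2D3 and GCLC with both agents against osimertinib.

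Over the 6 passage pairs that differ in 1,25(OH)2D3, 3 with and 3 without osimertinib, GCLC, HMOX1 and AKR1C1 were higher with it in 6 of 6, Sample 3a included. This held for 3 of the 9 target genes tested and for 5.77% of all genes tested. GCLM was higher in 0 of 6 pairs, NQO1 in 1, SRXN1 in 2, SLC7A11 and ME1 in 3 and TXNRD1 in 5. On the log2(CPM + 2) scale the GCLC pairs differed by 1.04 to 2.68, the HMOX1 pairs by 0.65 to 1.35 and the AKR1C1 pairs by 0.64 to 1.40. AKR1C2 and AKR1C3, paralogs of AKR1C1, were higher in 6 of 6 pairs too. AKR1C2 read only 0 to 3.97 CPM, below the floor in Samples 2c (0.193 CPM) and 4c (0 CPM). Its reads can be exchanged with those of AKR1C1, so it is not a separate result. AKR1C3 read 36.0 to 53.4 CPM in the H1975–OR libraries without 1,25(OH)2D3 and 56.4 to 93.9 CPM in those with it. AKR1C3 passed in no comparison.

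**Figure D3:**
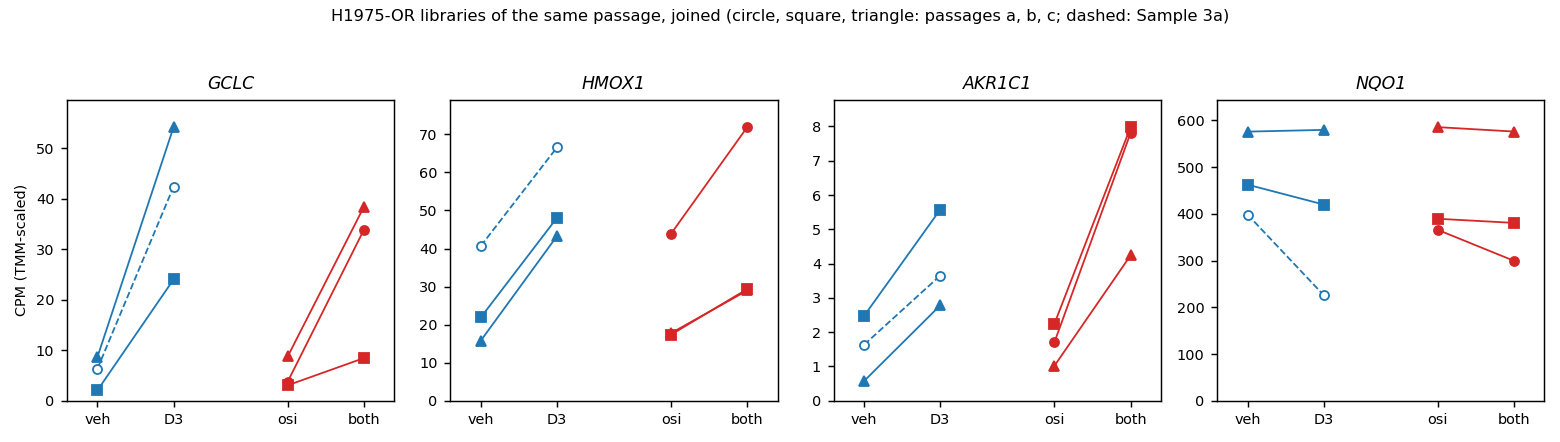
CPM in H1975–OR libraries of the same passage, joined by lines, from vehicle (veh) to 1,25(OH)2D3 (D3) in blue and from osimertinib (osi) to both agents in red (circle, square and triangle, passages a, b and c; dashed, the pair with Sample 3a). All 6 lines rise for GCLC, HMOX1 and AKR1C1, while NQO1 is higher with 1,25(OH)2D3 in 1 of 6 pairs.

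The last comparison asked whether the effect of 1,25(OH)2D3 differed with and without osimertinib. None of the 9 target genes passed in edgeR's test of the difference, nor did any of 12503 genes (0%), of which 330 (2.64%) had an unadjusted p under 0.05, while DESeq2 called 11 genes and 0 of the 9. The difference was −0.42 (SE 0.98) for GCLC, −0.10 (SE 0.73) for HMOX1 and 0.58 (SE 0.89) for AKR1C1 on the log2 scale. With the block, where the differences were −0.75 (SE 0.50) for GCLC, −0.62 (SE 0.21) for HMOX1 and 0.42 (SE 0.64) for AKR1C1, again no gene passed (lowest adjusted p of these 3, 0.97). HMOX1 was then the 1 target gene of 9 with an unadjusted p under 0.05, beside 4.77% of all genes, and its difference was −0.40 (SE 0.28) with Sample 3a kept.

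Over the 14 libraries without Sample 3a, the genes outside the list whose pattern was most like the mean standardised pattern of 9 of its genes were ATP6V1E1 (Pearson r = 0.913), CHST11 (0.910), NOL10 (0.908), DDX1 (0.906) and GPN1 (0.905), among 9416 genes with a mean of at least 50 counts. The libraries share the division into H1975 and H1975–OR and the passages, and the values are a description only.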

How the data were processed

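RNA was sequenced from 15 libraries in 5 groups of 3 passages. The authors made stranded, rRNA-depleted total RNA libraries, read them as paired ends on a NextSeq500, quantified hg38 transcripts by Kallisto and totalled them per gene by tximport, whose settings and annotation are not given in the sources used here. The submitters' processing notes name CASAVA 1.8.2, STAR 2.5.2b and kallisto 0.43.0. The deposited values are these estimated counts per gene, and were treated here as not scaled for depth or length. Kallisto divides reads shared by similar transcripts, which bears on AKR1B10 and AKR1C1, and gene totals do not show how far it bears on others such as GCLC, which varied widely within groups.

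Estimated counts were rounded and analysed in R 4.3.3 with edgeR 4.0.16 (filterByExpr with a minimum count of 10 and a minimum total of 15, TMM, glmQLFit, glmQLFTest, two-sided, Benjamini-Hochberg over all genes tested, threshold 0.05). H1975–OR against H1975 and 1,25(OH)2D3 against vehicle came from 1 fit of 8 libraries, and the other comparisons from 1 fit of 11 H1975–OR libraries, both without Sample 3a. The 10 genes, the pathway lists and the markers were chosen with earlier results of these data known. All 10 genes were named with every value, and from each list up to 4 genes per comparison with the smallest adjusted p under 0.05. Each SE of an edgeR log2 fold change is its absolute value divided by the square root of the test's F statistic. It was thus derived from the test and not fitted separately. CPM used TMM factors over all 15 libraries. A pseudocount of 2 CPM was used for passage pairs and similarity. Scripts were tested on simulated data. Some results of the pathway lists are not reported here.

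Whether passage letters pair the libraries was checked by correlating deviations from group means over 9490 genes. Within H1975–OR the same-letter pairs of the groups compared directly exceeded 0.1, so blocked values stand beside those results. Vehicle and osimertinib gave 0.350, 0.161 and 0.218, and osimertinib and both agents 0.518, 0.337 and 0.336. Vehicle and 1,25(OH)2D3 gave 0.367, 0.217 and 0.264. Passage b with 1,25(OH)2D3 stayed below 0.1 against passage b with osimertinib (−0.036) and with both agents (0.029). All of these passage b libraries were in the blocked fit of H1975–OR libraries. Alternatives were DESeq2, size factors, filters, Sample 3a, the block, other sets of libraries, summed paralogs and leaving out each library. Gene models came from GENCODE v44 and start regions from RefSeq, both GRCh38.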

Additional observations from a re-analysis of the deposited data

How the results depend on the processing

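Between the lines, 8 of the 10 genes were tested in all 17 alternatives, AKR1C1 in 15 and AKR1B10 in 12, and each kept its sign wherever it was tested except GCLC, which was 0.18 on the log2 scale without Sample 1c and between −2.33 and −1.30 otherwise. The genes called numbered 2521, of which 4 were targets, and with Sample 3a kept in 1636 and 2. Leaving out 1 library gave 1426 (Sample 1b) to 2835 (Sample 2a) genes and 2 (Samples 1b or 2b) to 7 (Sample 2a) targets. The replicate block, whose letters did not pair H1975 with H1975–OR (correlations 0.019, −0.044 and 0.002), gave 2150 genes and the same 4 targets.

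With 1,25(OH)2D3, 19 genes became 124 by DESeq2, 32 without a filter, 29 with at least 10 counts in every library, 29 over all 14 libraries, 9 in the compared groups alone and 9 with the replicate block in the fit of 8 libraries. Added after seeing the data were the H1975–OR libraries alone, with 12 genes, 48 with the block (2 targets) and 47 with the block and Sample 3a (1 target). Leaving out 1 library gave 5 to 18 genes, and a median of the targets of 0.061 to 0.40. With osimertinib, 6 genes became 117 by DESeq2, 35 with the block, 8 with the block and Sample 3a, 12 over 14 libraries and 2 in the compared groups alone, and leaving out 1 library gave 1 to 29 genes and a median of −0.13 to 0.12. For both agents against osimertinib, 12 genes became 66 by DESeq2, 5 with Sample 3a, 33 with the block (1 target), 22 with the block and Sample 3a (1 target), 2 in the compared groups alone and 3 to 14 with 1 library left out. For the difference of effects, 0 genes became 11 by DESeq2 and 0 to 1 with 1 library left out, with a median of −0.22 to 0.15. Unless named, the number of targets called stayed at 0 in these 4 comparisons, and the block changed no other call among the targets. The cause of these changes was not tested. Depth limits AKR1B10 and AKR1C1 most, at 0 to 44 counts per library.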

Other observations

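GPX4, the selenoenzyme that reduces lipid hydroperoxides with glutathione, fell into separate levels that did not follow the groups. It read 20.7 to 32.0 CPM in 3 libraries, Samples 2c, 4a and 4b, and 502 to 1196 CPM in the other 12. It was singled out after its values were seen, and the cause was not tested. GCLC also varied within H1975, at 51.4 CPM in Sample 1c against 6.40 and 3.64 CPM in Samples 1a and 1b.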
